A study of Mus musculus with 6 samples.

Results

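The 10 genes described here are used as markers of the oligodendrocyte lineage, from the dividing progenitor to the newly formed, premyelinating cell. They are Pdgfra, Cspg4, Olig1, Olig2, Sox10, Gpr17, Bcas1, Enpp6, Neu4 and Myrf. Not all are confined to these stages: Sox10 acts in progenitors and oligodendrocytes alike, and Bcas1 stays on in early myelinating cells. Bulk levels therefore do not assign their RNA to a stage. The 10 genes were chosen by gene symbol, with earlier results of these data known. All 10 were found among the 19943 genes of the tables and had enough counts to be tested. Oligodendrocyte progenitors are glial cells that keep dividing in the adult cortex. Some of them leave the cell cycle, pass through a committed precursor stage and become oligodendrocytes, which wrap axons in myelin. Myelination of the prefrontal cortex goes on after weaning, and social experience in that period is known to affect it in mice.

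RNA was sequenced in bulk from the medial prefrontal cortex of C57BL/6 mice: 3 libraries of mice kept in post-weaning social isolation for 3 weeks (isolated 1 to 3) and 3 libraries of control mice (control 1 to 3). The sample labels give an age of 6 weeks for both groups and the text on the design gives 7 weeks. The labels name neither sex nor batch and do not say whether each library is a different animal, so the spread behind the p-values may be technical. The isolated libraries held 18390902 to 18606573 expected counts and the controls 18226448 to 18544306. An expected count is the estimated number of reads of a gene, and levels are given as CPM, the counts of a gene relative to the library size, with TMM factors. In bulk tissue, fewer cells of a type and less RNA per cell cannot be told apart. The labelled tissue was checked by 12 cortical neuron markers, whose summed level was 6169.6 to 7091 CPM in isolated and 5964 to 7119 CPM in control libraries. The sum was lowest in isolated 3 within its group and in control 2 within its group. Single markers went opposite ways. Rorb was at 39.7 ± 5.61 CPM in isolated and 54.6 ± 7.89 CPM in control libraries (SD, n = 3 each), without overlap. Fezf2 was at 42.1 ± 6.72 CPM in isolated and 29.7 ± 7.91 CPM in control libraries, with overlap. Markers of striatal projection neurons, cells of a neighbouring region, were present at very unequal levels, with sums of 799 to 3058 CPM in isolated libraries, highest in isolated 3, and 593 to 4164 CPM in control libraries, highest in control 2 and lowest in control 3.

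None of the 10 members passed the test between isolated and control libraries. Over all 6 libraries the progenitor genes Cspg4 and Pdgfra varied least, with 1.15-fold and 1.22-fold between the highest and the lowest, followed by Neu4 (1.27-fold) and Gpr17 (1.34-fold). The members that varied most were Bcas1 (2.58-fold), Enpp6 (2.41-fold) and Myrf (2.37-fold). Isolated 3 held the highest level of 8 of the 10 members and control 3 the lowest level of 7. Of all genes tested, 17.2% were highest in isolated 3 and 16.4% were lowest in control 3.

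Promoter sequences of RefSeq (GRCm38.p6, 250 bases before to 50 after the start) were on hand for 5 of the members, and 3 are shown, of a gene that was level across libraries (Pdgfra), of a lineage transcription factor (Olig2) and of the member with the widest spread among the isolated libraries (Enpp6). Capitals mark matches on either strand to 7 motifs. These are the palindromic E-box CAGCTG and the E-box variant CATCTG, which basic helix-loop-helix factors such as Olig1 and Olig2 bind, the SOX factor core ACAAAG with its variant spelled ACAATG, the TATA box TATAAA, the box named for its letters CCAAT, and the GC box GGGCGG.
Pdgfra, chr5:75152001-75152300, plus strand: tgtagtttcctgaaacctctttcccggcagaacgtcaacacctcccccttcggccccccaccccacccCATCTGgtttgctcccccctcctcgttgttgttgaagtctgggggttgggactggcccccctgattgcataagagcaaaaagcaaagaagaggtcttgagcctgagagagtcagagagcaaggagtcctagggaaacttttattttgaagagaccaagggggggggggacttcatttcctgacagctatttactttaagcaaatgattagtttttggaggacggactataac
Olig2, chr16:91225300-91225599, plus strand: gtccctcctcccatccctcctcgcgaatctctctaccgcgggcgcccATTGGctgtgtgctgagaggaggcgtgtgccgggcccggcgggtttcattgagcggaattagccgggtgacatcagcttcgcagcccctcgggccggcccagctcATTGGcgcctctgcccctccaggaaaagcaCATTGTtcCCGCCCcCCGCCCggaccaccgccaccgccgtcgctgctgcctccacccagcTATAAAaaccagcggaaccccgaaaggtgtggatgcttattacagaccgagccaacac
Enpp6, chr8:46986637-46986936, plus strand: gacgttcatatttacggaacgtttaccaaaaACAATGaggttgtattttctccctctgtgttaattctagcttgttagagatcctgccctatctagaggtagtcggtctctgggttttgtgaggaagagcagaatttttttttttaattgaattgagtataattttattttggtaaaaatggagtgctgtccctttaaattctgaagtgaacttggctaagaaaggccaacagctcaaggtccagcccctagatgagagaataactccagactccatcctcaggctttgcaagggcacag
The Olig2 promoter held 65% G and C with 25 CpG dinucleotides, the Pdgfra promoter 51% with 5 and the Enpp6 promoter 40.3% with 4, against medians of 52.7% and 7 over 27025 promoters. In the Olig2 promoter 6 matches were found: 2 CCAAT boxes, 2 GC boxes, 1 TATA box and 1 variant SOX core. The Pdgfra promoter held 1 match, the variant E-box, and the Enpp6 promoter 1, the variant SOX core, and no matches overlapped one another in any of the 3. Of all promoters of this length 16.1% held the palindromic E-box and 17.2% its variant, 18.7% held the SOX core and 12.8% its variant. The TATA box was in 14.2%, the CCAAT box in 37.9% and the GC box in 35.9%, so single matches are common. A match describes the letters only.

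The 10 genes lie at separate places in the genome except Olig2 and Olig1, which are neighbours on chromosome 16 with 41091 bases between them (GRCm38). In RefSeq coordinates of that build Pdgfra lies at chr5:75151322-75198206, Cspg4 at chr9:56865104-56899870, Olig2 at chr16:91225550-91228677 and Olig1 at chr16:91269769-91271939. Sox10 lies at chr15:79154913-79164490, Gpr17 at chr18:31942999-31949890, Bcas1 at chr2:170343973-170427911, Enpp6 at chr8:46939197-47096762, Neu4 at chr1:94020493-94028334 and Myrf at chr19:10208271-10240777. The start behind the promoters shown for Pdgfra and Enpp6 lies inside the span of the gene, not at its end. Antisense genes of the GENCODE annotation cover 11.7% (Bcas1os1) and 0.9% (Bcas1os2) of the exon bases of Bcas1. Exons of Gm15966 cover 7.3% of Olig1, those of Gm42802 and Gm42803 4.5% and 1.7% of Pdgfra, and those of Lims2 3.6% of Gpr17, each on the opposite strand. On the same strand as Pdgfra, Mir7025 covers 0.3% of its exon bases. The use of strand in counting is not stated, so reads from these stretches could not be assigned to a strand. The other 6 members share no exon base with another annotated gene.

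Among the surface proteins of the progenitor, Pdgfra, the receptor through which platelet-derived growth factor keeps progenitors dividing, was level across all libraries. It had 45.5, 51.5 and 46.1 CPM in isolated 1, 2 and 3, against 43.4, 52.8 and 50.2 CPM in control 1, 2 and 3. The groups overlapped, with the highest and the lowest value both in controls. The fitted log2 difference, isolated over control, was -0.03 (SE 0.09, 95% interval -0.24 to 0.18, edgeR's quasi-likelihood test, unadjusted p = 0.722). Cspg4, which encodes the proteoglycan that names the progenitors NG2 glia, had 22.9, 24.1 and 23.9 CPM in the isolated libraries, against 21, 23.3 and 20.9 CPM in the controls. All isolated libraries were above control 1 and control 3, and control 2 lay among them. Its log2 difference was 0.12 (SE 0.07, 95% interval -0.05 to 0.28, edgeR unadjusted p = 0.139).

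Both genes are also expressed in other cells of the tissue: Pdgfra in meningeal fibroblasts and Cspg4 in pericytes. The summed level of 10 fibroblast markers was 139.5, 113 and 64.8 CPM in isolated 1, 2 and 3, against 106, 135 and 111 CPM in control 1, 2 and 3, with 0 of the 10 absent from any library. Of the 10, 2 had a higher fitted level in isolated libraries (median log2 difference -0.13), but 7 did without isolated 3 (median 0.10). Col1a1, a fibroblast collagen gene, was at 7.3 ± 2.41 CPM in isolated and 9.9 ± 1.26 CPM in control libraries (SD, n = 3 each), and Mgp, on the higher side, was at 8.42 ± 2.55 CPM in isolated and 6.97 ± 0.443 CPM in control libraries. The 10 pericyte and smooth muscle markers summed to 244 to 260.05 CPM in isolated and 262 to 305 CPM in control libraries. These groups did not overlap, but by a narrow margin. Taken singly, 1 of the 10 was lower without overlap and 0 were higher, where 4.73% and 4.12% of all genes tested were. Every one of the 10 had a lower fitted level in isolated libraries (median log2 difference -0.15), where 49.2% of all genes had a higher one. Without control 2, the library with the highest sum, 3 of the 10 were higher and the median was -0.02. At an edgeR unadjusted p under 0.05, 2 of the 10 were lower and 0 higher, where 2% and 1.52% of all genes tested were, and 0 passed after adjustment. The 2 were Vtn, at 44.3 ± 2.66 CPM in isolated and 56.3 ± 6.24 CPM in control libraries, and Notch3, at 23.6 ± 1.69 CPM in isolated and 27.1 ± 1.92 CPM in control libraries. The pericyte receptor gene Pdgfrb overlapped between the groups, at 27.2 ± 0.954 CPM in isolated and 30.7 ± 3.68 CPM in control libraries. The part of these cells in the Pdgfra and Cspg4 values was not tested.

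**Figure D1:**
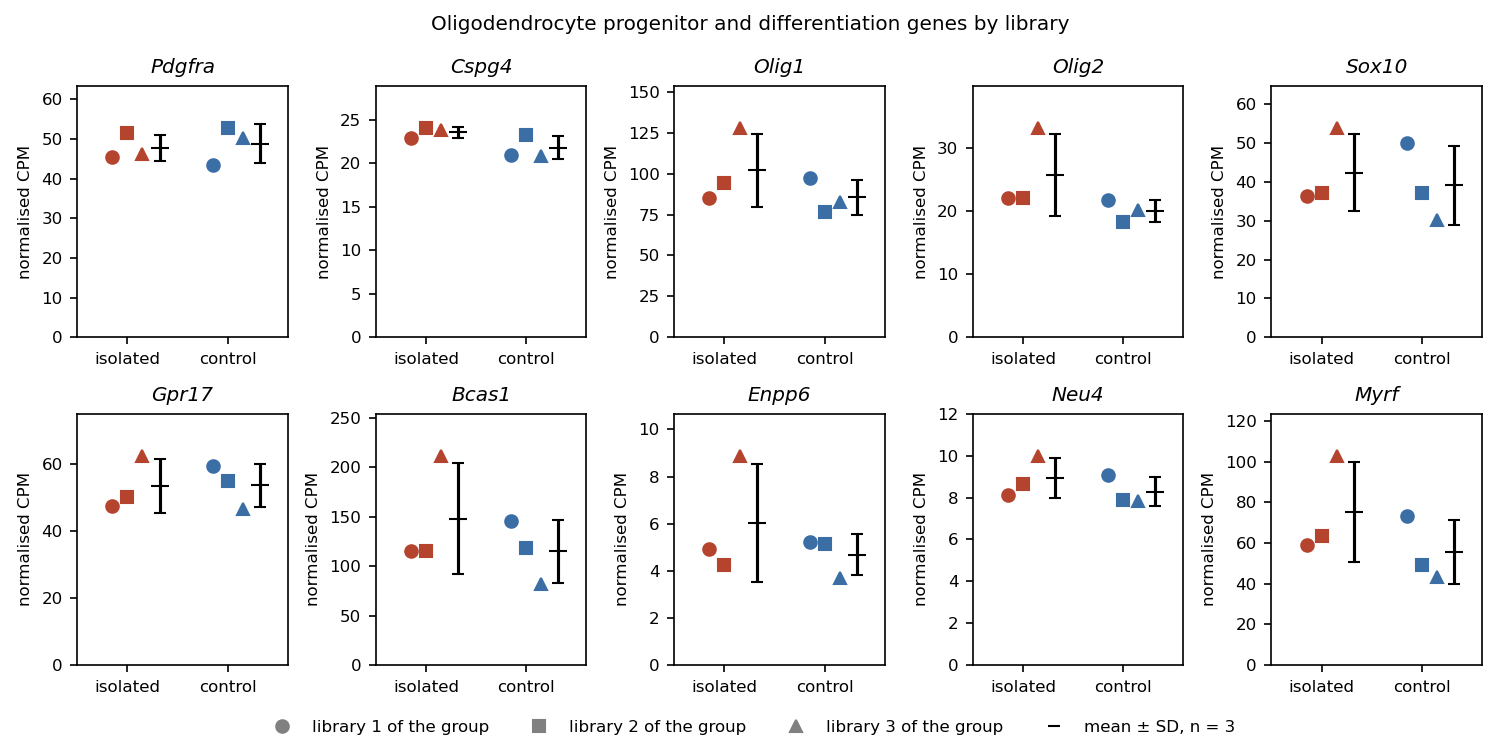
Normalised CPM of the 10 members in each library (points, isolated left of control, 1 marker shape per library number), with the mean and SD of each group as bars (n = 3). The triangle of isolated 3 is the highest point in 8 panels; for Pdgfra and Cspg4 the points lie close together.

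The transcription factors that set the lineage came next in the order, and isolated 3 stood above every other library for all 3 of them. Olig1 had 85, 94.3 and 128 CPM in isolated 1, 2 and 3, against 97.1, 76.8 and 82.6 CPM in control 1, 2 and 3. Control 1 exceeded both isolated 1 and isolated 2, so the groups overlapped (log2 difference 0.26, SE 0.16, 95% interval -0.10 to 0.62, edgeR unadjusted p = 0.136). Olig2, which is needed to specify the lineage, had 22, 22 and 33.2 CPM in the isolated libraries, against 21.7, 18.3 and 20.1 CPM in the controls. It was the 1 member of 10 whose groups did not overlap, which held in this direction for 4.12% of all genes tested (and in the other direction for 4.73%), but isolated 1 and 2 held 405 counts each and control 1 held 402, a gap within counting error. Its log2 difference of 0.36 (SE 0.17, 95% interval -0.03 to 0.75, edgeR unadjusted p = 0.0655) was 0.13 without isolated 3. Sox10, which acts in progenitors and oligodendrocytes alike and switches on Myrf, had 36.3, 37 and 53.9 CPM in the isolated libraries, against 50.1, 37 and 30.1 CPM in the controls. Here the second-highest library was control 1, and the log2 difference of 0.12 (SE 0.21, 95% interval -0.38 to 0.62, edgeR unadjusted p = 0.595) turned to -0.09 without isolated 3 and to -0.04 without control 3.

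Committed precursors and newly formed oligodendrocytes are marked by Gpr17, Bcas1, Enpp6 and Neu4, which did not behave alike. Gpr17, a receptor that is switched on in committed precursors and must be switched off before they myelinate, had 47.4, 50.2 and 62.6 CPM in isolated 1, 2 and 3, against 59.5, 54.9 and 46.7 CPM in control 1, 2 and 3. The groups covered the same range, and the log2 difference was -0.01 (SE 0.13, 95% interval -0.30 to 0.29). It turned slightly positive, to 0.0029, with upper-quartile scaling. Bcas1, which marks premyelinating cells and stays on in early myelinating ones, had 115, 115 and 212 CPM in the isolated libraries, against 146, 118 and 82.2 CPM in the controls. Isolated 3 was the highest and control 3 the lowest of the 6 libraries, and control 1 lay above isolated 1 and 2. The log2 difference was 0.36 (SE 0.28, 95% interval -0.31 to 1.02, edgeR unadjusted p = 0.247) and vanished without isolated 3 (-0.0039).

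Enpp6, a choline phosphodiesterase of newly forming oligodendrocytes, was the scarcest member, at 67 to 167 counts per library. It had 4.94, 4.24 and 8.89 CPM in isolated 1, 2 and 3, against 5.24, 5.12 and 3.68 CPM in control 1, 2 and 3. Isolated 1 and 2 lay below control 1 and 2, so the log2 difference of 0.36 (SE 0.29, 95% interval -0.32 to 1.04, edgeR unadjusted p = 0.249) rested on isolated 3 and was -0.03 without it. Neu4, a sialidase gene, had 8.14, 8.65 and 10.01 CPM in the isolated libraries, against 9.08, 7.9 and 7.86 CPM in the controls. Its libraries differed little, by at most 1.27-fold (log2 difference 0.11, SE 0.12, 95% interval -0.17 to 0.39, edgeR unadjusted p = 0.385).

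Myrf, the membrane-bound transcription factor that turns on the myelin genes, had the largest fitted difference of the 10. It had 59, 63.2 and 103 CPM in isolated 1, 2 and 3, against 73.1, 49.4 and 43.5 CPM in control 1, 2 and 3. Isolated 3 was highest, but control 1 lay above isolated 1 and 2, so the groups overlapped. The log2 difference was 0.44 (SE 0.26, 95% interval -0.16 to 1.04, edgeR unadjusted p = 0.126). It was 0.14 without isolated 3 and 0.69 without control 1, the control with the highest level.

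Taken as a list, 8 of the 10 members had a higher fitted level in isolated libraries, where 49.2% of all genes tested did, and 9 of 10 with upper-quartile scaling. The members belong to the same lineage and most shared the high level in isolated 3, so they are not independent observations. The median log2 difference of the 10 was 0.19, against -0.0018 over all 15169 genes tested. No member passed at an adjusted p under 0.05 with edgeR's quasi-likelihood test and Benjamini-Hochberg adjustment over all genes (0% of all genes passed in either direction), and each had an adjusted p of 0.999. At an unadjusted p under 0.05 there were also 0 members, beside 1.52% of all genes that were higher and 2% that were lower. DESeq2 and limma-voom called 0 of the 10 as well. Some alternatives gave an unadjusted p under 0.05, each with an adjusted p of at least 0.934. With DESeq2 the unadjusted p of Olig2 was 0.0432. With edgeR and fewer libraries it was 0.0451 for Olig1 and 0.0372 for Olig2 when isolated 1 was left out, 0.0379 for Olig2 when isolated 2 was, and 0.033 for Myrf when control 1 was. Without isolated 3 the count of higher members was 5 of 10 and the median 0.01, and without control 2 and isolated 3, the libraries with the most striatal marker RNA, it was 6 of 10 and 0.03. The intervals show what the 6 libraries could have missed: for Bcas1, Enpp6 and Myrf they reach a log2 difference above 1, whereas that of Pdgfra ends at 0.18 and that of Cspg4 at 0.28.

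**Figure D2:**
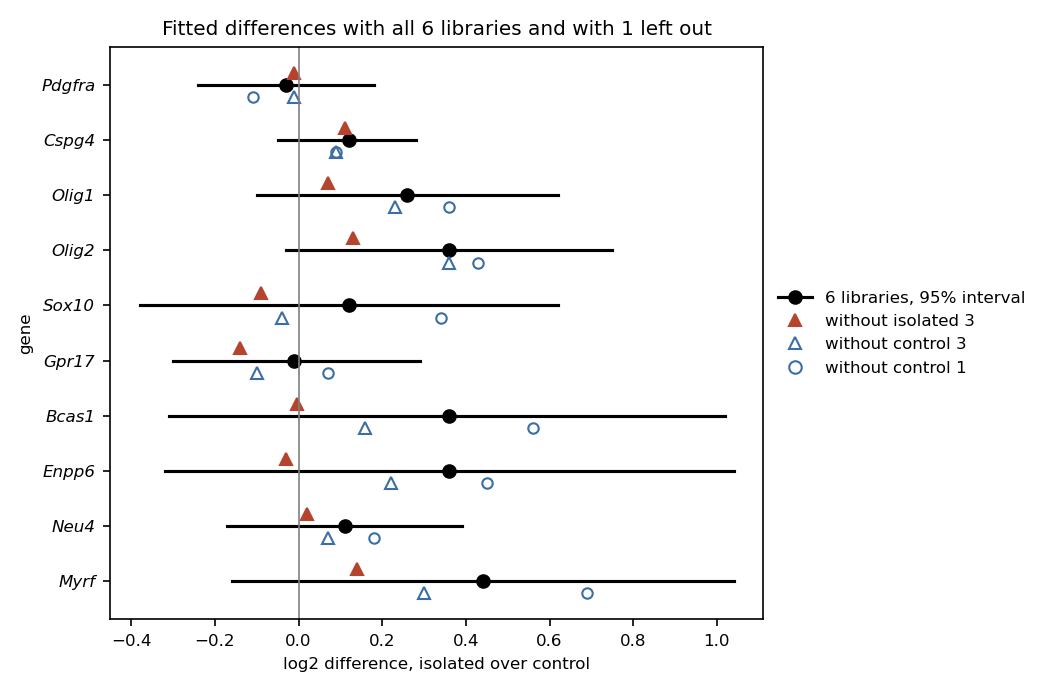
Fitted log2 difference, isolated over control, for each member with all 6 libraries (black point, line for the 95% interval), and the point value without isolated 3, without control 3 and without control 1. Every interval includes 0, and the value without isolated 3 is below the 6-library value for 9 of the 10, with Pdgfra at -0.03 and its own value without isolated 3 both close to 0.

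The members differed in how much they varied between libraries of the same group. The coefficient of variation between the 3 isolated libraries was 6.93% for Pdgfra and 2.67% for Cspg4, and between the 3 controls it was 9.95% for Pdgfra and 6.16% for Cspg4. For Bcas1 it was 38.1% in isolated and 27.7% in control libraries, for Myrf 32.6% in isolated and 28.3% in control libraries, and for Enpp6 41.6% in isolated and 18.5% in control libraries. Counting error alone would give 1.91% in isolated and 2.17% in control libraries for Bcas1, and 9.45% in isolated and 10.8% in control libraries for Enpp6. The variance of the Bcas1 counts was 419 times the counting variance in isolated and 166 times in control libraries, while that of Cspg4 was 0.53 times in isolated and 1.94 times in control libraries. Neu4 stood at 2.34 times in isolated and 1.07 times in control libraries, so these 2 genes varied little beyond counting noise. Sox10 (47.6 times in isolated, 49.1 times in control libraries) and Gpr17 (26 times in isolated, 15.5 times in control libraries) lay between. The Olig2 counts stood at 32.8 times in isolated and 2.43 times in control libraries, and those of Pdgfra at 4.38 times in isolated and 9.52 times in control libraries. For the same relative spread this ratio grows with the number of counts, so it does not rank genes of unlike level. Enpp6, with few counts, stood at only 20.3 times in isolated and 3.14 times in control libraries despite its coefficient of variation of 41.6% in isolated libraries.

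**Figure D3:**
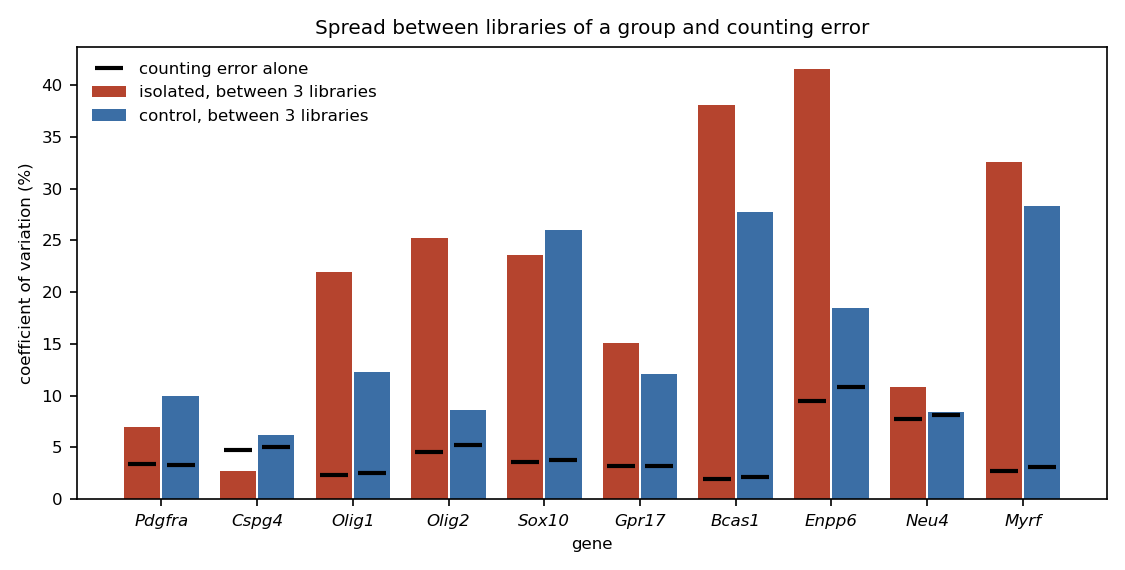
Coefficient of variation of normalised CPM between the 3 libraries of each group (bars, isolated left of control) and the value that counting error alone would give (black dashes), in percent. Bcas1, Enpp6 and Myrf vary most in the isolated group; Cspg4 and Neu4 stay near counting error.

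The members that varied did so in the same libraries as the myelin genes. On the log2(CPM + 0.5) scale, the mean deviation of the 10 members from the 6-library mean was -0.09, -0.04 and 0.41 in isolated 1, 2 and 3, and 0.08, -0.10 and -0.27 in control 1, 2 and 3. The same quantity for 22 myelin and mature oligodendrocyte genes was -0.10, -0.0022 and 0.66 in the isolated libraries and 0.18, -0.25 and -0.50 in the controls. The order of the 6 libraries was the same in both. Mbp, which encodes myelin basic protein, had 1660 CPM, 1740 CPM and 3077 CPM in isolated 1, 2 and 3, against 2113, 1452 and 1239 CPM in control 1, 2 and 3. Its ratio to Bcas1, taken on FPKM (reads per length of the gene and size of the library), stayed within 21.5 to 22.8 in isolated and 18.5 to 22.5 in control libraries, while its ratio to Pdgfra was 108 to 216 in isolated and 78.6 to 157 in control libraries.

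Striatal markers were high in isolated 3 and low in control 3 too, by 1.40 in isolated 3 and -1.75 in control 3 on the same scale. Control 2 had the highest striatal level (1.84) and lay at -0.10 for the members. Fibroblast markers went the other way in isolated 3 (-0.62), and the mean of 8 migrating neuroblast markers was high there (0.53), although their summed level was nearly flat, at 409 to 434 CPM in isolated and 406 to 421 CPM in control libraries. Cd24a was at 9.96 CPM in isolated 3 and at 3.57 to 5.22 CPM in the other 5 libraries. Sp8, a transcription factor of neuroblasts, was at 4.74 CPM in isolated 3 and at 1.14 to 2.34 CPM in the other 5. By contrast, Sox11 was highest in control 2 (23.6 CPM, against 16.3 CPM in isolated 3) and Dcx in control 3 (46.3 CPM, against 44.9 CPM in isolated 3). Astrocyte and microglia markers were lower in the isolated group without overlap of their sums, though only narrowly for microglia. The 12 astrocyte markers, 10 of them with a lower fitted level, summed to 4549 to 4707 CPM in isolated and 4881 to 5107 CPM in control libraries. The 12 microglia markers, 11 of them with a lower fitted level, summed to 376 to 399 CPM in isolated and 401 to 432 CPM in control libraries. Taken singly, 2 of the 12 astrocyte and 5 of the 12 microglia markers were lower without overlap, and 0 were higher. Over all genes tested, 4.73% were lower and 4.12% higher without overlap. Of the 12 astrocyte and of the 12 microglia markers, 0 passed at an edgeR adjusted p under 0.05. Much of the astrocyte sum came from Slc1a2 alone, at 2805 ± 112 CPM in isolated and 3062 ± 124 CPM in control libraries. Aldh1l1, a defining astrocyte marker, overlapped between the groups, at 55.1 ± 1.32 CPM in isolated and 57.3 ± 1.13 CPM in control libraries. The part of tissue make-up in the member values was not tested.

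**Figure D4:**
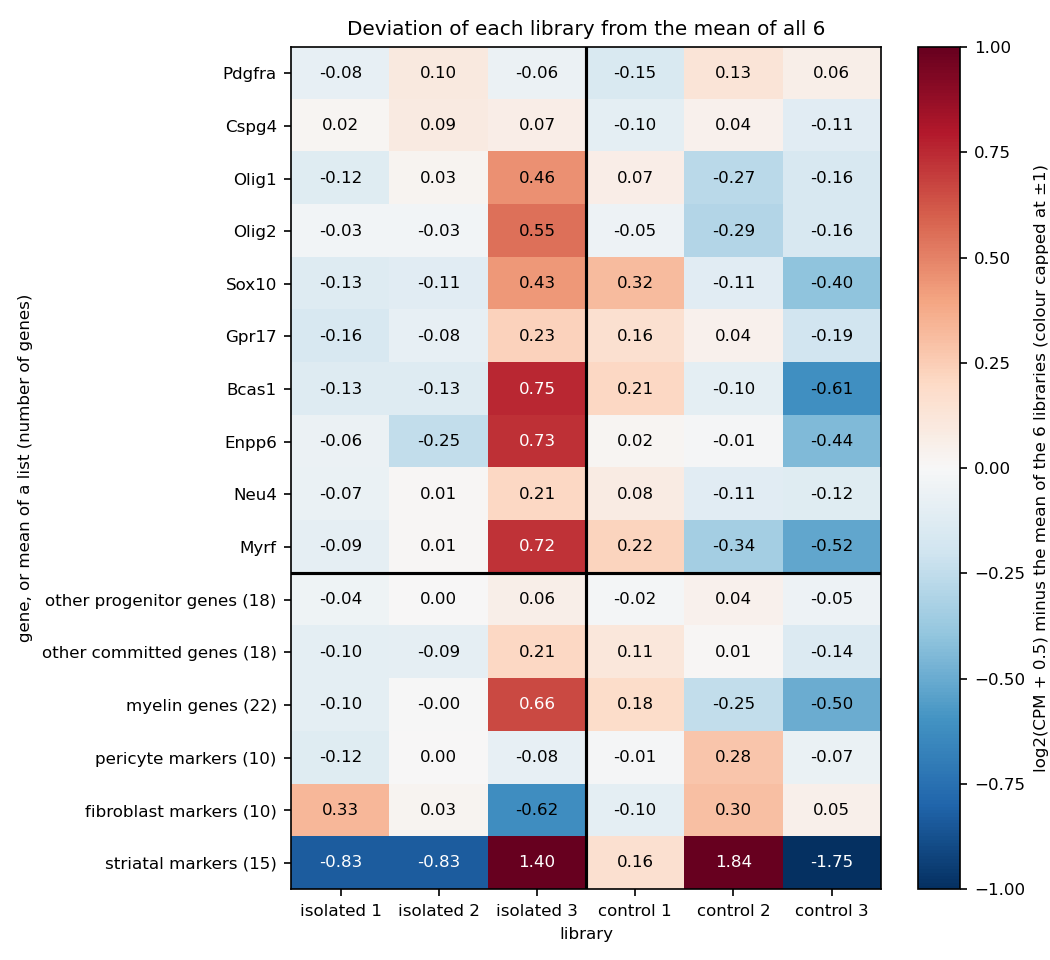
Deviation of each library from the mean of the 6 libraries in log2(CPM + 0.5), for the 10 members (above the line) and as the mean of 6 gene lists (below it), isolated libraries left of controls. Isolated 3 is positive for every member but Pdgfra, control 3 is negative for every member but Pdgfra, and the myelin list follows the same order of libraries as the members.

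Levels per length, which can be compared between genes, put Olig1 and Bcas1 on top in every library, then Sox10, and Enpp6 and Neu4 last. Olig1 averaged 47.4 ± 10.9 FPKM in isolated and 39.5 ± 4.74 FPKM in control libraries (SD, n = 3 each), and Bcas1 47.9 ± 18.7 FPKM in isolated and 37.3 ± 10.4 FPKM in control libraries. These 2 neighbours in the order did not differ beyond their spread, and either could be first. Sox10 averaged 15.7 ± 3.85 FPKM in isolated and 14.4 ± 3.75 FPKM in control libraries, and came next after them in all 6 libraries. Below it Myrf, Gpr17, Olig2 and Pdgfra changed places between libraries. In isolated libraries they averaged 13.3 ± 4.49 FPKM (Myrf), 10.2 ± 1.65 FPKM (Gpr17), 10.5 ± 2.75 FPKM (Olig2) and 7.23 ± 0.511 FPKM (Pdgfra). In control libraries they averaged 9.79 ± 2.78 FPKM (Myrf), 10.2 ± 1.28 FPKM (Gpr17), 8.14 ± 0.661 FPKM (Olig2) and 7.38 ± 0.761 FPKM (Pdgfra). Cspg4 followed in every library, at 2.91 ± 0.104 FPKM in isolated and 2.68 ± 0.185 FPKM in control libraries. Neu4 (1.96 ± 0.233 FPKM in isolated, 1.81 ± 0.154 FPKM in control libraries) and Enpp6 (1.97 ± 0.841 FPKM in isolated, 1.53 ± 0.292 FPKM in control libraries) overlapped.

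A ratio of 2 members within a library does not depend on how libraries are scaled. The Bcas1 to Pdgfra ratio of FPKM, a measure of late against early stage RNA, was 5.42, 4.77 and 9.84 in isolated 1, 2 and 3, against 7.18, 4.75 and 3.5 in control 1, 2 and 3, so the groups overlapped. The ratio of Olig1 to Olig2 was nearly fixed, at 4.37 to 4.87 in isolated and 4.68 to 5.08 in control libraries. Of all 45 pairs of members, 5 (11.1%) had ratios that did not overlap between the groups, close to the 9.32% of all pairs of tested genes that did so, and the pairs share genes and are not independent. The 5 were Olig1 to Gpr17, Olig2 to Gpr17, Olig2 to Neu4, Sox10 to Myrf and Gpr17 to Myrf. Myrf relative to Sox10, its activator, was 0.78, 0.82 and 0.92 in the isolated libraries, against 0.701, 0.641 and 0.694 in the controls. It was higher in 3 of 3 isolated libraries than in any control, with an exact two-sided permutation p of 0.1, the smallest that 3 against 3 allows, and an adjusted p of 0.9 over the 45 pairs. This pair was picked out after its values were seen.

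**Figure D5:**
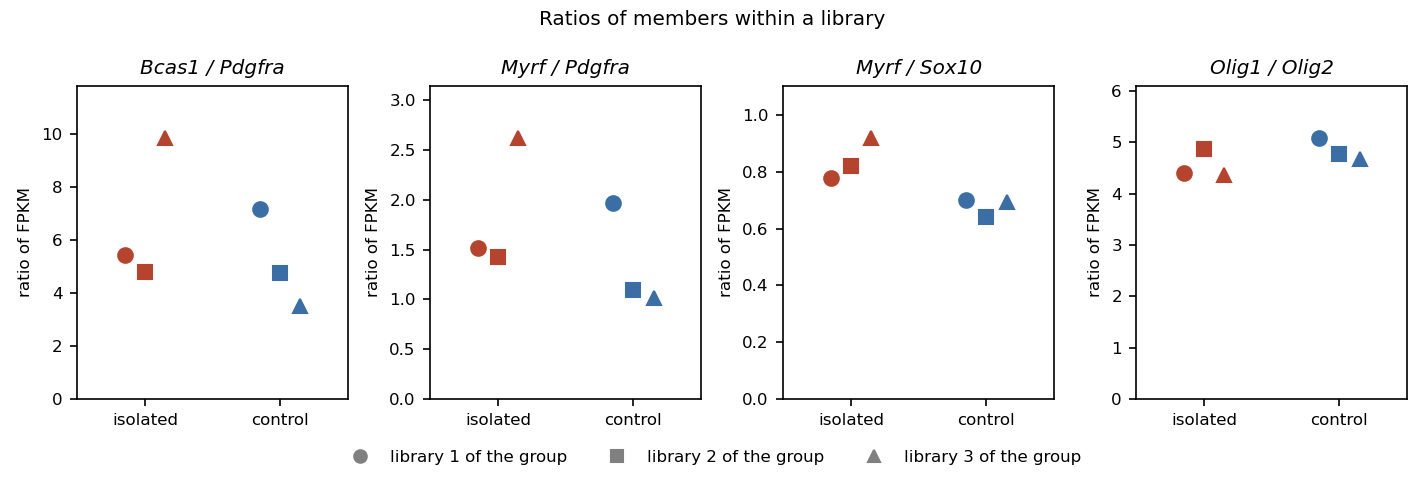
Ratios of FPKM between members within each library, isolated left of control, 1 marker shape per library number, axes from 0. Bcas1 and Myrf relative to Pdgfra overlap between the groups, Myrf relative to Sox10 does not (0.78 to 0.92 in isolated, 0.641 to 0.701 in control libraries), as for 9.32% of all pairs of tested genes, and Olig1 relative to Olig2 is nearly constant.

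Other genes of the lineage gave no called difference either. Of 18 further progenitor genes 10 were higher and 8 lower in isolated libraries, with a median log2 difference of 0.03 and 0 at an unadjusted p under 0.05 by edgeR. Their summed level was 536 to 573 CPM in isolated and 539.8 to 582 CPM in control libraries. Those with the smallest p among the higher were Xylt1, a xylosyltransferase that starts proteoglycan chains, at 24.2 ± 1.46 CPM in isolated and 22.7 ± 1.33 CPM in control libraries, and Megf11, at 29.3 ± 3.37 CPM in isolated and 26.6 ± 3.57 CPM in control libraries. Among the lower they were Emid1, at 4.52 ± 0.311 CPM in isolated and 5.19 ± 0.382 CPM in control libraries, and Rlbp1, at 13.6 ± 0.814 CPM in isolated and 15.4 ± 2.27 CPM in control libraries. Of 18 further genes of committed and newly formed cells 9 were higher and 9 lower, with a median of 0.01. That split moved with the library left out: 6 of 18 were higher without isolated 3 (median -0.11) and also without control 3 (-0.04), and 14 of 18 without control 1 (0.07). Bmp4, a growth factor made by committed precursors, had 4.23, 3.1 and 2.98 CPM in isolated libraries, against 2.7, 2.56 and 2.09 CPM in controls, without overlap (log2 difference 0.49, SE 0.20, edgeR unadjusted p = 0.0416, adjusted p = 0.999). It was the 1 gene of these 18 that was apart, where 4.12% of all genes tested were apart in this direction. It was also the 1 at an unadjusted p under 0.05 by edgeR, where 1.52% of all genes were, on the higher side. Nkx6-2, a homeobox gene of oligodendrocytes, was at 8.18 ± 2.81 CPM in isolated and 6.24 ± 1.95 CPM in control libraries. On the lower side Tcf7l2, a Wnt effector of newly formed oligodendrocytes, was at 4.42 ± 0.467 CPM in isolated and 6 ± 1.77 CPM in control libraries, and Epb41l2, a membrane skeleton gene, at 79.9 ± 6.87 CPM in isolated and 89.3 ± 6.18 CPM in control libraries.

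Among 38 signals and regulators of the lineage, 37 were tested, of which 21 were higher and 16 lower (median log2 difference 0.02). Groups did not overlap for 1 of the 37 on the higher side and 2 on the lower side. The shares of all genes tested that were apart in these directions were 4.12% and 4.73%. Pdgfa, the ligand of the Pdgfra receptor, was level, with 24.5, 24.8 and 22.5 CPM in isolated libraries, against 23.5, 21.9 and 23.5 CPM in controls. The fibroblast growth factor receptor gene Fgfr1 had 61.4, 59.8 and 61.8 CPM in isolated libraries, against 56.5, 55.1 and 51.5 CPM in controls. Its groups were apart by a small step (log2 difference 0.17, SE 0.06, edgeR unadjusted p = 0.02, adjusted p = 0.999). Hes1, a target of Notch that holds cells undifferentiated, had 8.9, 8.48 and 8.31 CPM in isolated libraries, against 10.5, 11.1 and 9.29 CPM in controls, also apart (log2 difference -0.27, SE 0.10, edgeR unadjusted p = 0.031, adjusted p = 0.999). Yy1, a zinc finger factor that acts in oligodendrocyte differentiation, was lower without overlap as well, at 36.9 ± 0.539 CPM in isolated and 40.1 ± 1.72 CPM in control libraries. Gpr37, a receptor of maturing oligodendrocytes, stood at 63.7 ± 19.99 CPM in isolated and 48.4 ± 6.67 CPM in control libraries, highest in isolated 3. All 22 myelin genes had a higher fitted level in isolated libraries, by a median of 0.40, which was 0.10 without isolated 3 and 0.62 without control 1. With both isolated 3 and control 2 left out it was 0.04. The smallest p among them belonged to Anln, with 29.2, 27.5 and 49.2 CPM in isolated libraries, against 28.1, 23.4 and 17.3 CPM in controls, and to the gap junction gene Gjb1, at 11.6 ± 3.65 CPM in isolated and 8.02 ± 1.73 CPM in control libraries.

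The genes outside these lists whose levels followed the mean of the 10 members most closely over the 6 libraries were Itgb4, Zrsr2, Fgfr2, Tmem63a and Gstm7, out of 11536 genes with a mean of at least 5 CPM. Their likeness, as Pearson's r over 6 libraries, was 0.998 for Itgb4 and 0.997 for the other 4. It describes these 6 points, of which isolated 3 and control 3 are the extremes, and a high value is easily reached by some gene among so many. Itgb4, an integrin subunit, had 9.44, 9.95 and 18.2 CPM in isolated 1, 2 and 3, against 11.7, 9.64 and 7.37 CPM in control 1, 2 and 3. The growth factor receptor gene Fgfr2 had 38, 38.3 and 50.5 CPM in the isolated libraries, against 42.2, 37.1 and 33.5 CPM in the controls. Zrsr2, a splicing factor gene, followed the same order within a range of only 36 to 40.5 CPM.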

How the data were processed

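Bulk RNA of 6 libraries was analysed from 1 table per library. The authors deposited an expected count (an estimate that need not be whole, not normalized) and an FPKM value (scaled for gene length and library size) for each gene, per the file headers. Per the submitters' processing notes the tools were RSEM, HISAT and Bowtie2 and the genome was mm10, with no version or role. A series-wide FPKM table with 6 value columns was not used here, because its column codes match no label. The 1 entry without a gene identifier held at most 0.00095% of the counts and was left out.

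Expected counts were rounded, filtered with filterByExpr (minimum count 10, minimum total 15, leaving 15169 genes and removing 4774) and then tested in R 4.3.3 with edgeR 4.0.16: TMM factors of 0.991 to 1.012, quasi-likelihood F-test without covariates, Benjamini-Hochberg adjustment over all tested genes, threshold 0.05. The standard error is the log2 difference divided by the square root of F, and the 95% interval uses the t distribution. Alternatives used DESeq2 1.42.0, limma 3.58.1 (voom, and log2 of FPKM plus 1 or 0.1), other scalings, no filter, a replicate block and fewer libraries. The script was tested on simulated data. No pair of libraries agreed within counting noise (chi-square of 2.89 to 20.37 per gene), so none was counted as a repeat of another; this does not show that the libraries came from different animals.

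The members and lists were chosen with earlier results of these data known. Named genes are all members, the 2 genes with the smallest p in each direction of the lineage lists, defining markers, and the 5 genes most like the mean of the members. Of the other marker lists, some of the genes with the smallest p in a direction are named as well. Values called counting error cover the sampling of reads only.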

Additional observations from a re-analysis of the deposited data

How the results depend on the processing

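No member was called under any of the 16 alternatives, and the smallest adjusted p of a member among them was 0.888 (Olig1 and Olig2 without control 3). Over all genes edgeR called 0, with 535 at an unadjusted p under 0.05; DESeq2 called 1 gene, Fkbp5 (306), and limma-voom 0 (536). Leaving out 1 library moved the count of members with a higher fitted level in isolated libraries, 8 of 10, between 5 (without isolated 3) and 10, and their median log2 difference between 0.01 and 0.35. The sign of the log2 difference turned with the library left out for Pdgfra (-0.11 to 0.03), Sox10 (-0.09 to 0.34), Gpr17 (-0.14 to 0.07), Bcas1 (-0.0039 to 0.56) and Enpp6 (-0.03 to 0.56); it kept its sign for Cspg4 (0.09 to 0.17), Olig1 (0.07 to 0.38), Olig2 (0.13 to 0.46), Neu4 (0.02 to 0.18) and Myrf (0.14 to 0.69). Without control 2 and isolated 3 the sign turned for Pdgfra (0.05), Olig1 (-0.0033), Sox10 (-0.13) and Neu4 (-0.01). With upper-quartile scaling it turned for Gpr17 (0.0029). The cause was not tested. Replicate numbers of the titles gave no sign of pairing: deviations of same-numbered isolated and control libraries had r of 0.06, -0.35 and -0.59 across genes. The check could miss a shared litter or batch, because other differences between libraries enter the same deviations. With the replicate block 0 genes were called (331 at an unadjusted p under 0.05), 8 of 10 members were higher and the median was 0.18. Depth limits Neu4, whose 143 to 188 counts per library varied little beyond counting error; Enpp6, at 67 to 167 counts, varied by 41.6% between isolated libraries, where counting error gives 9.45%.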
